A study of Danio rerio with 6 samples.

Results

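Vimentin (vim, ENSDARG00000010008), fibronectin 1a (fn1a, ENSDARG00000019815) and the transcription factors snai1a (ENSDARG00000056995), snai1b (ENSDARG00000046019) and twist1a (ENSDARG00000030402) were followed in the injured larval zebrafish kidney, with and without UPHD25. These 5 genes were taken by identifier from the 32520 genes of the count table because mesenchymal genes report the dedifferentiation of injured tubule cells. All 5 passed the filter on low counts, as did 17497 genes in all.

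Vimentin is the intermediate filament protein of mesenchymal cells, and renal tubular epithelial cells (RTECs) are known to make it when they lose their differentiated state after acute kidney injury (AKI). Fibronectin is a secreted matrix glycoprotein that cells bind through integrins. Snail and Twist proteins are transcription factors of epithelial-to-mesenchymal transition (EMT), in which Snail represses E-cadherin and other genes of epithelial junctions, and TGF-beta signalling is a known inducer of the program.

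Both groups were Tg(PT:egfp) larvae, whose proximal tubules (PTs) are green, and both were injected with the nephrotoxic antibiotic gentamicin at 3 days post-fertilization (dpf). The gent-AKI+UPHD25 larvae were then held in 1 μM UPHD25, a prodrug of the histone deacetylase inhibitor PTBA, in 1% DMSO for 24 h from 2 days post-injection (5 dpf), and the gent-AKI+DMSO larvae were held in 1% DMSO alone. Each group had 3 biological replicates, numbered 1 to 3, and each of the 6 libraries came from GFP-positive pronephros dissected by hand from 100 pooled larvae at 6 dpf. Pooling hides the spread between larvae, larvae were picked for having AKI before treatment, and no uninjured library was analysed here, so the values compare the treatments within injured kidneys.

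Counts on genes summed to 23328700, 10781071 and 12326927 in UPHD25 replicates 1 to 3, against 30750026, 11851159 and 12031990 in DMSO replicates 1 to 3. PT markers were present, with the phosphate transporter SLC20A1 (ENSDARG00000010641) at 851 to 902 CPM (counts scaled to a library of 1000000 counts) after UPHD25 and 741 to 993 CPM after DMSO. Another PT row carries the name SLC20A1 (ENSDARG00000020114), and its values are not given here. The 16 PT rows, both SLC20A1 rows included, summed to 1045 to 1270 CPM after UPHD25 and 905 to 1275 CPM after DMSO. Most of that sum was the row ENSDARG00000010641, and 1 row was at 0 throughout. Of the 12 tested, 8 had a log2 fold change above 0 and 4 below, from -0.64 to 1.72. The groups of 2 did not overlap, both higher after UPHD25, against 10.4% of all genes. Markers of other tissues were present too. The 8 skeletal muscle genes summed to 6232 to 11481 CPM after UPHD25 and 13700 to 15475 CPM after DMSO, and the 8 liver genes to 4143 to 9834 CPM after UPHD25 and 8959 to 14077 CPM after DMSO. UPHD25 replicate 3 stood apart, with a mean Pearson's r of 0.919 with the other libraries against 0.939 to 0.953 for the rest, over genes that are not independent replicates.

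Whether UPHD25 altered the mesenchymal genes of the injured kidney was asked with edgeR's quasi-likelihood test over all 17497 genes. None of the 5 genes had a Benjamini-Hochberg adjusted p under 0.05 (0 of 5), and neither did any other gene, so the background was 0.0%. vim alone (1 of 5) had an unadjusted p under 0.05, against 12.5% of all genes. It was also the only one of the 5 whose groups did not overlap, against 17.8% of all genes. DESeq2's Wald test called 639 of the 26081 genes with a count in any library, and none of the 5 was among them. Since RNA came from bulk tissue, a lower level may reflect fewer cells of a type or less RNA per cell, which cannot be told apart.

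vim stood at 138, 145 and 168 CPM in UPHD25 replicates 1 to 3, against 106, 119.8 and 104 CPM in DMSO replicates 1 to 3. These CPM are scaled by edgeR's TMM factors, which correct for differences in RNA composition. All 3 UPHD25 libraries lay above all 3 DMSO libraries, and UPHD25 replicate 3 was the highest of the 6. The means were 151 ± 15.8 CPM after UPHD25 and 109.9 ± 8.71 CPM after DMSO (SD, n = 3 each).

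The vim log2 fold change was 0.45 (SE 0.17, 95% interval 0.06 to 0.85), a 1.37-fold higher level after UPHD25. It missed the threshold (edgeR's quasi-likelihood test, unadjusted p = 0.0288, adjusted p = 0.320). The two-sided exact permutation test on vim gave p = 0.1, the smallest that 3 libraries against 3 allow. Of all genes, 9.09% had an unadjusted p under 0.05 and a higher level after UPHD25, and 3.41% had one and a lower level. The groups of 10.4% of all genes were separated in the direction of vim.

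Within same-numbered pairs the vim ratio of UPHD25 to DMSO was 1.30, 1.21 and 1.62 in pairs 1 to 3. vim was thus higher after UPHD25 in 3 of 3 pairs, as were 22.2% of all genes. With the replicate 3 libraries of both groups left out, its log2 fold change was 0.33 (edgeR, adjusted p = 0.768).

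Nervous tissue, which also expresses vimentin, was read from 7 markers. Of these 1 had an unadjusted p under 0.05 and a higher level, against 9.09% of all genes. The groups of 3 did not overlap, all in the higher direction, against 10.4% of all genes. The 7 glial and neuronal genes, all tested and none at 0, summed to 186, 407 and 525 CPM in UPHD25 replicates 1 to 3, against 203, 186 and 184 CPM in DMSO replicates 1 to 3. Each of the 7 had a log2 fold change above 0. GFAP, a glial gene of the list, was at 32.2, 43.5 and 115 CPM after UPHD25 and at 76.3, 37.0 and 21.1 CPM after DMSO. Its groups overlapped (log2 fold change 0.50, SE 0.57). FABP7 is a radial glial gene, and the values of its row ENSDARG00000034650 are not given here. Its row ENSDARG00000007697 had the smallest edgeR adjusted p of the 7. That row was at 45.1, 41.4 and 154 CPM after UPHD25 and at 11.7, 13.7 and 20.2 CPM after DMSO. It was among the 639 of 26081 genes that DESeq2's Wald test called (log2 fold change 2.34, adjusted p = 0.000752). Its highest library, UPHD25 replicate 3, was also the highest for vim. In edgeR the FABP7 log2 fold change was 2.40 with all libraries (adjusted p = 0.207) and 1.51 without that library (adjusted p = 0.306). Of the fibroblast markers tested, 5 of 6 had a log2 fold change below 0, and of the endothelial markers 4 of 6. So did 5 of 5 leukocyte and 6 of 6 smooth muscle markers. The part of glia, neurons or those other tissues in the vim difference was not tested.

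**Figure D1:**
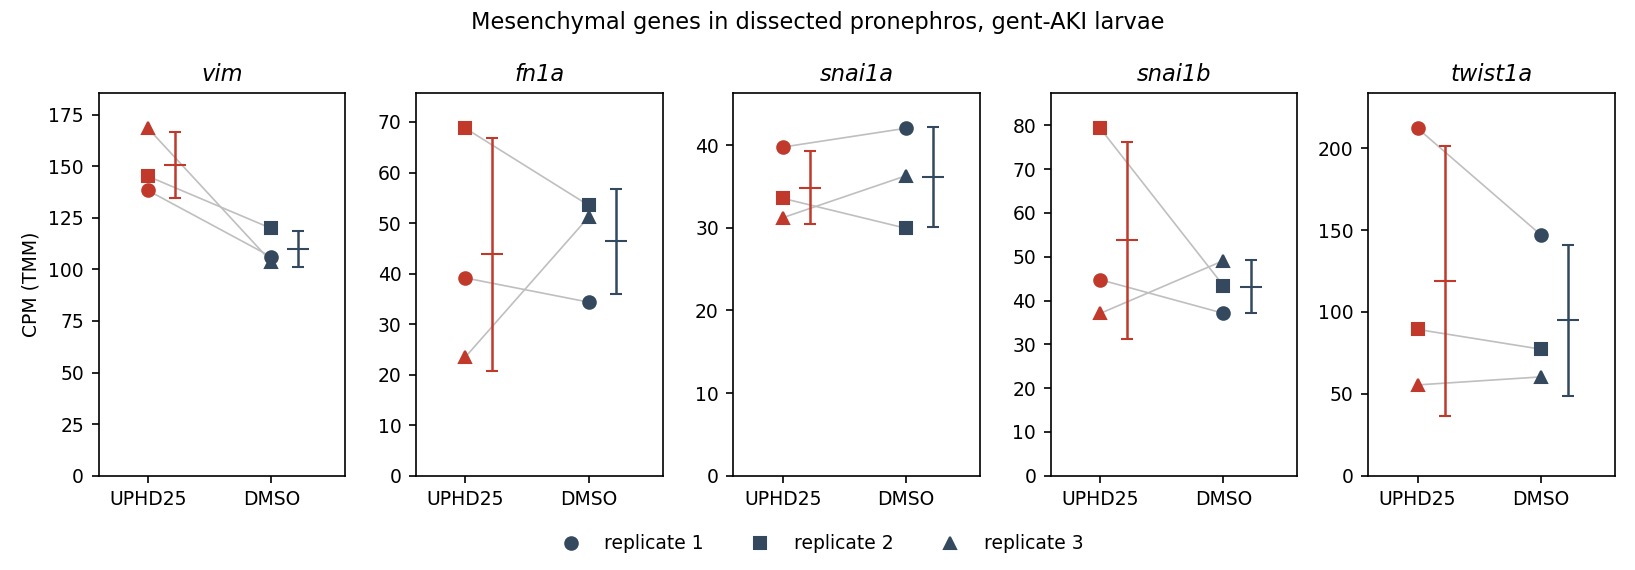
Level of the 5 genes in each library, in CPM with TMM scaling, with UPHD25 on the left and DMSO on the right of each panel. Symbols are replicates, grey lines join same-numbered libraries, and the bars beside the points are the mean ± SD (n = 3). The vim groups are apart, at 138 to 168 CPM after UPHD25 and 104 to 119.8 CPM after DMSO, and the groups of the other 4 genes overlap.

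A second table row carries the human name VIM (ENSDARG00000044501) and was looked at after the values of vim were seen. It was low, with 67, 23 and 23 counts after UPHD25 and 103, 22 and 40 counts after DMSO, and its groups overlapped. Its log2 fold change was -0.39 (SE 0.38), against 0.45 for vim. The vimentin-related genes vimr1 and vimr2 are intermediate filament genes of the same family. vimr1 was at 54.2, 28.3 and 16.2 CPM after UPHD25 and at 45.5, 29.3 and 13.2 CPM after DMSO. vimr2 was at 12.04, 4.33 and 4.36 CPM after UPHD25 and at 8.82, 4.68 and 2.25 CPM after DMSO. Both followed the replicate number more than the treatment, with log2 fold changes of 0.16 (vimr1, SE 0.52) and 0.39 (vimr2, SE 0.57).

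Of the 13 intermediate filament genes outside vim, 8 had a log2 fold change above 0 and 5 below, with a median of 0.16 against 0.03 over all genes, and 0 of 13 had an adjusted p under 0.05. Without UPHD25 replicate 1, or without UPHD25 replicate 2, 6 were above 0 and 7 below, with a median of -0.02 or -0.17. The desmin row DES (ENSDARG00000058656), the muscle intermediate filament, was at 432, 794 and 262 CPM after UPHD25 and at 826, 1054 and 1349 CPM after DMSO, and its groups did not overlap. Its log2 fold change was -1.12 (SE 0.41, edgeR adjusted p = 0.302). The other DES row (ENSDARG00000005221) was at 3.96 to 9.39 CPM after UPHD25 and 6.24 to 8.33 CPM after DMSO, with overlap (log2 fold change -0.26, SE 0.35). The 8 skeletal muscle markers were each lower after UPHD25 too, and their part in the DES values was not tested. Among the keratins, which form the filaments of simple epithelia, krt18a.1 was at 1.07 to 2.75 CPM after UPHD25 and 2.54 to 10.4 CPM after DMSO, and krt18b was at 4.30 to 29.1 CPM after UPHD25 and 5.15 to 15.4 CPM after DMSO. Both keratins overlapped between groups. krt8, the usual partner of keratin 18, had a log2 fold change of 0.05 (SE 0.26).

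fn1a was at 39.1, 68.8 and 23.5 CPM in UPHD25 replicates 1 to 3, against 34.4, 53.5 and 51.2 CPM in DMSO replicates 1 to 3. UPHD25 replicate 2 was the highest and UPHD25 replicate 3 the lowest of all 6 libraries, so the UPHD25 group enclosed the DMSO group. The means were 43.8 ± 23.0 CPM after UPHD25 and 46.4 ± 10.5 CPM after DMSO (SD, n = 3 each). The fn1a log2 fold change was -0.08 (SE 0.37, 95% interval -0.95 to 0.78, edgeR adjusted p = 0.963).

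The pairs of fn1a went in different directions, with UPHD25 to DMSO ratios of 1.14, 1.28 and 0.459 in pairs 1 to 3. The same sequence of 2 higher pairs and a lower pair 3 was shown by 10.8% of all genes. Without UPHD25 replicate 3 the log2 fold change was 0.21, without DMSO replicate 2 it was 0.03, and without UPHD25 replicate 2 it was -0.57 (edgeR adjusted p = 0.847, 0.998 and 0.494 in that sequence). With the replicate number as a block it was -0.18 (edgeR adjusted p = 0.828). The interval of fn1a therefore allows a level from 0.519 to 1.72 times that of DMSO, and its direction depended on which library was left out.

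The fibroblast markers were low in the same library as fn1a. Their sum was 2322, 2241 and 1840 CPM in UPHD25 replicates 1 to 3, against 2541, 2275 and 2270 CPM in DMSO replicates 1 to 3, and 5 of the 6 were lowest in UPHD25 replicate 3, as were 23.0% of all genes. None of the 6 was at 0. The PT gene pdzk1, a scaffold of the brush border, was chosen from the 16 PT rows after its values were seen. It was at 50.3, 9.52 and 68.8 CPM after UPHD25 and at 48.1, 6.55 and 26.5 CPM after DMSO. The 16 PT rows together were less uneven, in a sum that includes the abundant SLC20A1. They summed to 1196, 1045 and 1270 CPM in UPHD25 replicates 1 to 3, against 1096, 905 and 1275 CPM in DMSO replicates 1 to 3. The part of tissue makeup in the fn1a values was not tested.

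The table holds another fibronectin row under the human name FN1 (ENSDARG00000006526), with a different pattern. It was at 3384, 2953 and 2995 CPM after UPHD25 and at 3798, 6121 and 5188 CPM after DMSO. All 3 UPHD25 libraries were below all 3 DMSO libraries, a separation that 7.46% of all genes had in that direction. Its log2 fold change was -0.69 (SE 0.27, edgeR unadjusted p = 0.035, adjusted p = 0.351), against -0.08 for fn1a, and it lay between -0.88 and -0.54 over the 15 alternatives. Liver, which secretes plasma fibronectin, was represented in the same libraries. All 8 liver genes had a log2 fold change under 0, with a median of -0.84. Of the 8, 7 were lowest in UPHD25 replicate 3, against 23.0% of all genes. The second fibronectin row was lowest in UPHD25 replicate 2. Of the liver genes 0 of 8 had an unadjusted p under 0.05, against 3.41% of all genes in the lower direction. The groups of 0 of 8 were separated, against 7.46% in that direction. The part of liver RNA in the second fibronectin row was not tested, nor was the sharing of reads between the fibronectin rows.

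Among the 28 tested genes of matrix and mesenchymal effectors, which include that second row, 11 were higher and 17 lower by log2 fold change, with a median of -0.06 (all genes 0.03) and no adjusted p under 0.05 (0 of 28). In 0 of 28 did the UPHD25 libraries lie above all DMSO libraries, against 10.4% of all genes, and in 3 they lay below, against 7.46%. In the list 14 of 28 genes were lowest in UPHD25 replicate 3, against 23.0% of all genes, and without that library 14 were higher and 14 lower. With library totals in place of TMM, 15 were higher and 13 lower, with a list median of 0.02 against 0.15 over all genes. N-cadherin (CDH2), the mesenchymal cadherin, was at 44.6 to 59.24 CPM after UPHD25 and 46.0 to 58.0 CPM after DMSO, with a log2 fold change of 0.02 (SE 0.19, 95% interval -0.42 to 0.46). CCN2, a matricellular protein induced by TGF-beta, was at 4.91, 6.25 and 3.89 CPM after UPHD25 and at 4.24, 3.09 and 2.25 CPM after DMSO, with a log2 fold change of 0.63 (SE 0.35, edgeR adjusted p = 0.535). The membrane protease row MMP14 (ENSDARG00000008388) was at 11.1 to 16.7 CPM after UPHD25 and 17.4 to 23.5 CPM after DMSO, without overlap. Its log2 fold change was -0.46 (SE 0.23, edgeR adjusted p = 0.491). Groups overlapped for the other MMP14 row (ENSDARG00000002235, log2 fold change -0.10, SE 0.22) and for ccn2b (log2 fold change -0.02, SE 0.50).

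Integrins are the receptors through which cells bind fibronectin. The list read here also holds the syndecan gene sdc4, which is not an integrin. Of the 12 tested genes in the list, 1 was higher by log2 fold change, and it was sdc4 (0.04). The 11 lower genes were integrins, and the median of the list was -0.26 (all genes 0.03). None had an adjusted p under 0.05 (0 of 12), and 8 of 12 were lowest in UPHD25 replicate 3, against 23.0% of all genes. Without that library 3 were higher and 9 lower, with a median of -0.15. With library totals the numbers were also 3 and 9, with a list median of -0.13 against 0.15 over all genes. With the replicate number as a block 0 were higher and 12 lower (median -0.30), and without UPHD25 replicate 2 the median was -0.45. Leukocytes express integrins too, and the 5 leukocyte markers tested, of 9 rows, were each lower by log2 fold change (median -1.09). Of the 5, 4 had an unadjusted p under 0.05, against 3.41% of all genes in that direction. The groups of 4 did not overlap, against 7.46% of all genes in that direction. The leukocyte rows summed to 265, 267 and 90.8 CPM in UPHD25 replicates 1 to 3, against 329.8, 352.1 and 352.8 CPM in DMSO replicates 1 to 3, and 3 of the 9 rows were at 0 in all libraries. All 5 were lowest in UPHD25 replicate 3, against 23.0% of all genes. Without that library 4 of 5 were lower after UPHD25, with a median of -0.88. DESeq2's Wald test called ptprc and LCP1, which encode a leukocyte surface phosphatase and an actin-bundling protein (adjusted p = 0.0315 for ptprc and 0.0143 for LCP1). It called 639 of 26081 genes in all. In edgeR none of the 5 passed the threshold, and the smallest adjusted p among them was 0.207. The part of leukocytes in the integrin values was not tested. ITGB3 (ENSDARG00000045070), a partner of the alpha V integrin, was at 15.5, 20.0 and 13.3 CPM after UPHD25 and at 23.3, 26.5 and 23.4 CPM after DMSO. Its groups did not overlap, and its log2 fold change was -0.58 (SE 0.21, edgeR adjusted p = 0.2995). ITGA8 had a log2 fold change of -0.45 (SE 0.19, edgeR adjusted p = 0.392) and ITGAV of -0.31 (SE 0.23, edgeR adjusted p = 0.675).

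ITGA5, the alpha subunit of the main fibronectin receptor, followed the sequence of fn1a across the libraries. It was at 111, 235 and 41.0 CPM in UPHD25 replicates 1 to 3, against 105, 166 and 118 CPM in DMSO replicates 1 to 3. As for fn1a, UPHD25 replicate 2 was the highest library and UPHD25 replicate 3 the lowest, and the log2 fold change was close to 0 with a wide interval (95% interval -1.23 to 1.23, SE 0.53). Of the 4 rows named ITGB1, the beta subunit of that receptor, ENSDARG00000071863 had groups that did not overlap, at 175 to 215 CPM after UPHD25 and 219 to 234 CPM after DMSO (log2 fold change -0.20, SE 0.17, edgeR adjusted p = 0.737). The other 3 overlapped.

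**Figure D2:**
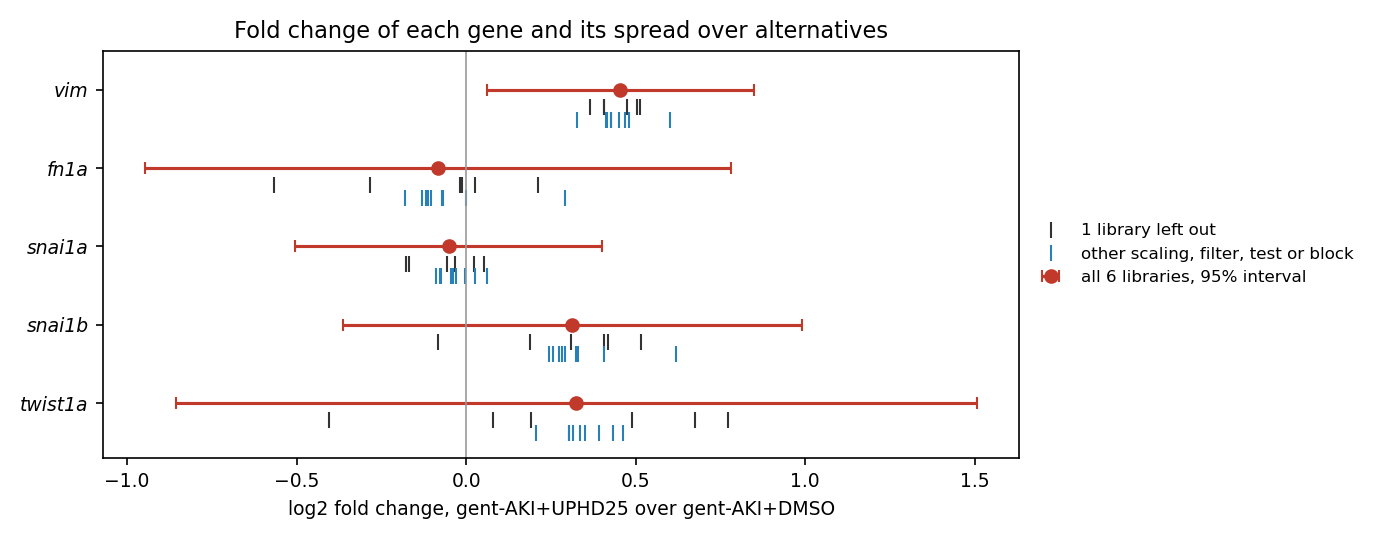
Log2 fold change of each gene, gent-AKI+UPHD25 over gent-AKI+DMSO. Red points and bars are the estimate and 95% interval from all 6 libraries, black ticks leave out a library in turn, and blue ticks use another scaling, filter, test, replicate block or no replicate 3. All vim ticks lie between 0.33 and 0.60, and the ticks of fn1a, snai1a, snai1b and twist1a fall on both sides of 0.

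snai1a, a zebrafish Snail gene, was at 39.8, 33.6 and 31.2 CPM in UPHD25 replicates 1 to 3, against 42.0, 29.9 and 36.3 CPM in DMSO replicates 1 to 3. The groups overlapped almost wholly, with means of 34.8 ± 4.41 CPM after UPHD25 and 36.1 ± 6.05 CPM after DMSO (SD, n = 3 each). The snai1a log2 fold change was -0.05 (SE 0.20, edgeR adjusted p = 0.957). Its 95% interval ran from -0.50 to 0.40, so a level between 0.705 and 1.32 times that of DMSO was compatible with these libraries. Replicate 1 was the highest library of snai1a in both groups. The sign of snai1a was not fixed: it was 0.05 without DMSO replicate 1 and 0.02 without UPHD25 replicate 3. With library totals in place of TMM its log2 fold change was 0.06, where the median of all genes was 0.15.

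snai1b, its paralogue, was at 44.8, 79.3 and 37.1 CPM in UPHD25 replicates 1 to 3, against 37.1, 43.4 and 49.1 CPM in DMSO replicates 1 to 3. UPHD25 replicate 2 was far above the others, and the remaining 5 libraries lay between 37.1 and 49.1 CPM. The snai1b log2 fold change was 0.31 (SE 0.29, 95% interval -0.36 to 0.99, edgeR adjusted p = 0.762), and without UPHD25 replicate 2 it was -0.08. Without UPHD25 replicate 3 it was 0.51, and without DMSO replicate 1 it was 0.19. The pair ratios of snai1b were 1.21, 1.83 and 0.755.

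snai2, the third Snail gene tested, encodes Slug. It was at 172, 173 and 223 CPM after UPHD25 and at 165, 178 and 222 CPM after DMSO. Replicate 3 was the highest in both groups, and within each pair the treatments were close (log2 fold change 0.01, SE 0.20, 95% interval -0.46 to 0.48). snai3 was under 1 CPM in every library and was not tested. The difference between Snail paralogues was read within each library from the ratio of counts, snai1b over snai1a. The ratio was 1.13, 2.36 and 1.19 after UPHD25 and 0.882, 1.45 and 1.35 after DMSO, and the groups overlapped (difference of 0.29 in log2 ratio, two-sided exact permutation p = 0.6, adjusted p = 0.90 over the 3 ratios computed).

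twist1a, a basic helix-loop-helix factor of mesenchyme, was at 212, 89.3 and 55.5 CPM in UPHD25 replicates 1 to 3, against 147, 77.3 and 60.4 CPM in DMSO replicates 1 to 3. Replicate 1 was the highest library in both groups, as it was for 14.9% of all genes, and it is also the deepest in both. In UPHD25 replicate 1 twist1a was 2.93 times the mean of the other UPHD25 libraries, and in DMSO replicate 1 it was 2.14 times the mean of the other DMSO libraries. The replicate number thus went with a larger difference in twist1a than the treatment did, since the pair ratios of UPHD25 to DMSO were 1.44, 1.16 and 0.919.

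The twist1a log2 fold change was 0.33 (SE 0.51, 95% interval -0.86 to 1.51, edgeR adjusted p = 0.877). With the replicate number as a block it was 0.21 with a smaller SE of 0.19 (edgeR adjusted p = 0.646). Without UPHD25 replicate 1 the value was -0.40, and without DMSO replicate 1 it was 0.77. It was also 0.08 without DMSO replicate 3, 0.19 without DMSO replicate 2, 0.49 without UPHD25 replicate 2 and 0.67 without UPHD25 replicate 3. None of these had an adjusted p under 0.05, and the sign turned only without UPHD25 replicate 1.

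The other Twist genes were read beside it. twist1b was at 23.2, 15.5 and 13.6 CPM after UPHD25 and at 16.9, 9.08 and 13.3 CPM after DMSO (log2 fold change 0.41, SE 0.30). twist2 was at 34.0, 27.5 and 17.3 CPM after UPHD25 and at 24.1, 25.7 and 20.8 CPM after DMSO (log2 fold change 0.16, SE 0.26). twist3 was at 14.6, 6.73 and 11.4 CPM after UPHD25 and at 10.9, 5.33 and 2.91 CPM after DMSO (log2 fold change 0.76, SE 0.49). All 4 Twist genes had a log2 fold change above 0, though without UPHD25 replicate 1 only 2 of the 4 did. The groups of each gene overlapped, and the edgeR adjusted p of the 4 was 0.621 or more. In 3 of the 4, twist2 being the exception, replicate 1 was the highest library of both groups. The twist1a to vim ratio of counts was 1.53, 0.616 and 0.329 after UPHD25 and 1.39, 0.645 and 0.582 after DMSO, with overlap (log2 difference -0.25, two-sided exact permutation p = 0.9, adjusted p = 0.90 over the 3 ratios). The difference was 0.27 without UPHD25 replicate 3 and 0.15 without DMSO replicate 1.

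**Figure D3:**
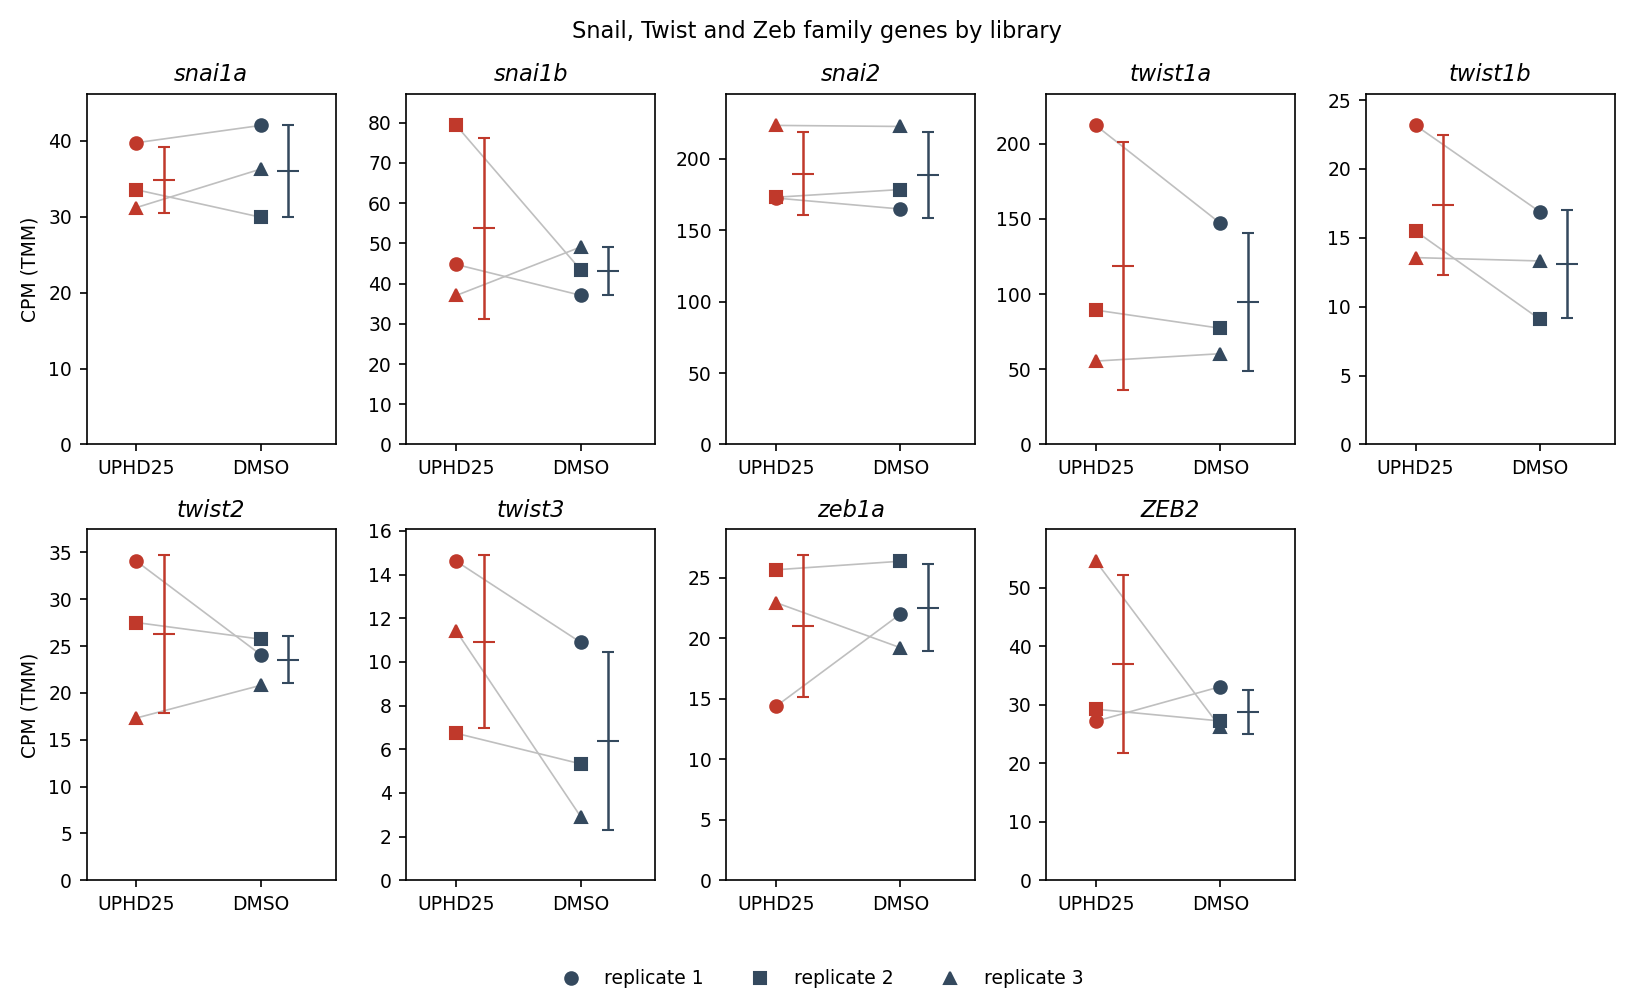
Level of the tested Snail, Twist and Zeb genes in each library, in CPM with TMM scaling, with UPHD25 on the left and DMSO on the right. Symbols are replicates, grey lines join same-numbered libraries, and the bars are the mean ± SD (n = 3). Replicate 1 tops both groups for snai1a, twist1a, twist1b and twist3, replicate 3 tops both for snai2, and every panel shows overlapping groups.

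The remaining EMT transcription factors also showed little separation. Including the Snail and Twist paralogues, 14 of 17 rows were tested, of which 7 had a log2 fold change above 0 and 7 below, with a median of -0.02 (all genes 0.03) and 0 with an adjusted p under 0.05. With library totals 11 were above 0 and 3 below, with a list median of 0.11 against 0.15 over all genes. Zeb proteins are zinc finger repressors of E-cadherin. zeb1a was at 14.4, 25.7 and 23.0 CPM after UPHD25 and at 22.0, 26.4 and 19.2 CPM after DMSO (log2 fold change -0.11, SE 0.26). The row named ZEB2 was at 27.2, 29.2 and 54.5 CPM after UPHD25 and at 33.1, 27.2 and 26.1 CPM after DMSO, and its log2 fold change of 0.36 (SE 0.29, edgeR adjusted p = 0.713) came with a high value in UPHD25 replicate 3, the library with the most glial and neuronal RNA. Without that library it was -0.03 (edgeR adjusted p = 0.97). Zeb2 is also a factor of neural crest and nervous tissue, and the part of such cells was not tested. The row zeb2a was at 0 in all libraries, and the row named ZEB1 was too low to test.

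In 2 of the 14 the groups did not overlap, 1 in each direction, against 17.8% of all genes in either. tcf3b, an E protein partner of Twist, was at 1.28, 0.962 and 0.739 CPM after UPHD25 and at 0.234, 0.374 and 0.583 CPM after DMSO (log2 fold change 1.41, SE 0.50, edgeR adjusted p = 0.296). In counts these were 29, 10 and 11 after UPHD25 and 7, 4 and 7 after DMSO. Of 2 rows named SOX9, the lower (ENSDARG00000043923) was at 34.3, 36.4 and 40.3 CPM after UPHD25 and at 50.1, 44.6 and 47.5 CPM after DMSO (log2 fold change -0.36, SE 0.16, edgeR adjusted p = 0.420). The other (ENSDARG00000003293) overlapped between groups, at 97.0, 194 and 87.4 CPM after UPHD25 and at 133, 125 and 100.4 CPM after DMSO (log2 fold change 0.08). Sox9 is known in mouse as a factor of regenerating tubule cells.

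Epithelial genes that EMT factors are known to repress were read beside snai1a and snai1b. E-cadherin (cdh1) was at 172, 201 and 148 CPM in UPHD25 replicates 1 to 3, against 198, 304 and 270.4 CPM in DMSO replicates 1 to 3. It was lower in each pair, but UPHD25 replicate 2 was above DMSO replicate 1, so the groups overlapped. Its log2 fold change was -0.57 (SE 0.22, edgeR unadjusted p = 0.035, adjusted p = 0.352). Over all genes 18.7% were lower after UPHD25 in all 3 pairs.

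Occludin (oclna), a tight junction protein, was at 66.6, 63.5 and 52.8 CPM after UPHD25 and at 96.7, 136 and 70.8 CPM after DMSO, without overlap. Its log2 fold change was -0.73 (SE 0.25, edgeR unadjusted p = 0.021, adjusted p = 0.286). The values of its paralogue oclnb are not given here. Another tight junction gene, tjp3, was at 101, 101 and 78.5 CPM after UPHD25 and at 101, 130.2 and 130.2 CPM after DMSO (log2 fold change -0.36, SE 0.19, edgeR adjusted p = 0.517). Of the 20 tested epithelial genes 5 were higher and 15 lower by log2 fold change, with a median of -0.13 (all genes 0.03), and 0 of 20 had an adjusted p under 0.05. Without UPHD25 replicate 3 the numbers were 3 and 17, and with library totals they were 10 and 10. Library totals moved the median of all genes to 0.15. The list median less that of all genes was -0.15 there, against -0.16 with TMM. These genes are also expressed in liver and pancreas, whose markers were lower after UPHD25 (8 of 8 and 5 of 5 by log2 fold change). Epidermis is an epithelium too, and 2 of its 4 markers tested were lower (median 0.20). Its markers summed to 123, 128 and 459 CPM after UPHD25 and to 146, 158 and 191 CPM after DMSO. The part of those tissues was not tested.

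TGF-beta pathway genes were counted in the same way. Of 19 tested, 5 were higher and 14 lower by log2 fold change, with a median of -0.11 (all genes 0.03), and 0 had an adjusted p under 0.05. In UPHD25 replicate 3, 10 of 19 were lowest, against 23.0% of all genes. Without that library 9 were higher and 10 lower. With library totals 10 were higher and 9 lower, with a list median of 0.003 against 0.15 over all genes. The receptor row TGFBR2 (ENSDARG00000034541) was at 98.3, 92.1 and 68.8 CPM after UPHD25 and at 119.8, 118 and 113 CPM after DMSO, without overlap (log2 fold change -0.43, SE 0.19, edgeR adjusted p = 0.397). The other TGFBR2 row (ENSDARG00000059363) had a log2 fold change of -0.69 (SE 0.33) and groups that overlapped. SMAD3 (ENSDARG00000010207), which carries the signal to the nucleus, was at 17.2 to 21.0 CPM after UPHD25 and 23.3 to 24.6 CPM after DMSO (log2 fold change -0.36, SE 0.18, edgeR adjusted p = 0.465). Another row carries the name SMAD3 (ENSDARG00000036096), and its values are not given here. The ligand gene tgfb1a had a log2 fold change of 0.13 (SE 0.34).

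**Figure D4:**
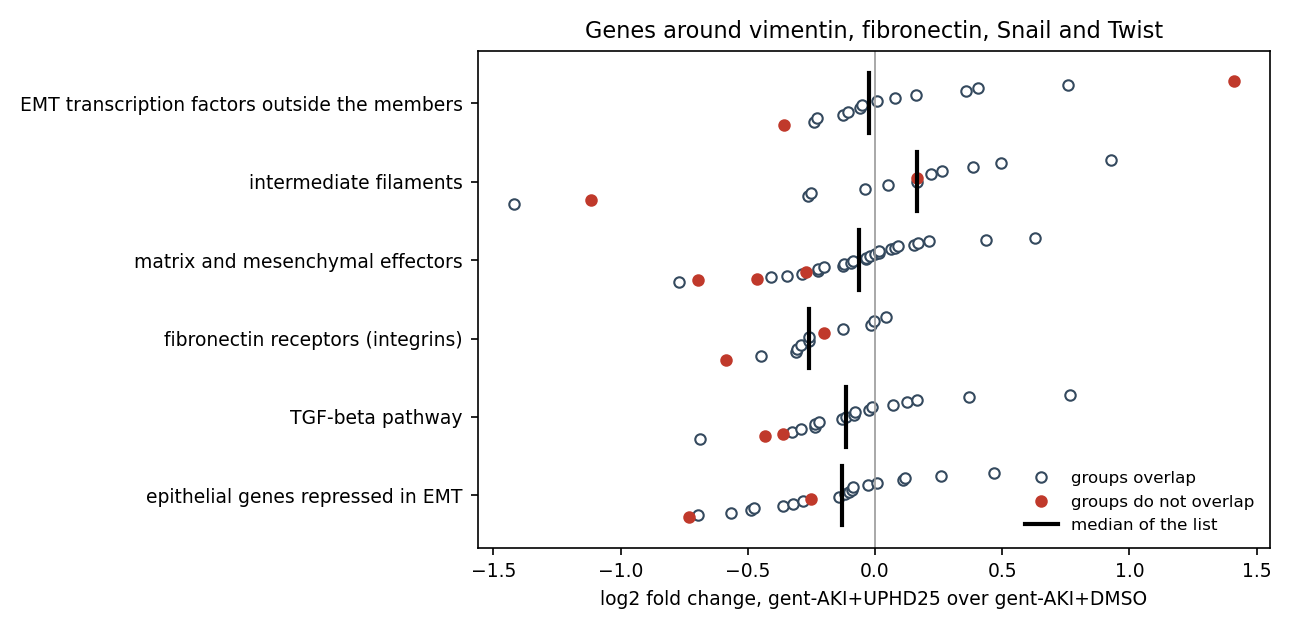
Log2 fold change, gent-AKI+UPHD25 over gent-AKI+DMSO, of each tested gene in 6 lists around the 5 genes. Filled points are genes whose groups did not overlap, open points genes whose groups did, and black bars the list medians. The integrin list, which includes the syndecan gene sdc4, has a median of -0.26 and 11 of 12 genes below 0. No gene in any list had an adjusted p under 0.05. With library totals 9 of 12 genes of the integrin list were below 0, where the median of all genes was 0.15. Without UPHD25 replicate 3, 9 of 12 were below 0 with a median of -0.15, and the epithelial median was -0.27. With the replicate number as a block 12 of 12 genes of the integrin list were below 0 (median -0.30).

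Across the 5 genes the pairs did not behave alike. In pair 1 the level was higher after UPHD25 for 4 of 5 genes, all except snai1a, where 51.1% of all genes were higher. In pair 2 it was higher for 5 of 5, against 51.1% of all genes. In pair 3 it was higher for 1 of 5, vim, against 52.3% of all genes. vim was therefore apart from the rest in pair 3, where fn1a and vim went in opposite directions. Their ratio within a library, fn1a over vim, was 0.283, 0.474 and 0.140 after UPHD25 and 0.324, 0.447 and 0.494 after DMSO. UPHD25 replicate 3 had the lowest ratio, but the groups overlapped (log2 difference -0.64, two-sided exact permutation p = 0.3, adjusted p = 0.90 over the 3 ratios). Without that library the difference was -0.18.

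The spread among replicates differed between the genes as well. The SD of log2 CPM for vim was 0.15 after UPHD25 and 0.11 after DMSO, below the medians over all genes of 0.39 after UPHD25 and 0.25 after DMSO. snai1a was also steady, at 0.18 after UPHD25 and 0.24 after DMSO. For fn1a the SD was 0.77 after UPHD25 and 0.35 after DMSO, and for snai1b it was 0.57 after UPHD25 and 0.20 after DMSO. For twist1a it was 0.98 after UPHD25 and 0.66 after DMSO. twist1a thus had the widest spread in both groups and vim the narrowest.

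The genes with the most similar pattern were taken by Pearson's r of log2 CPM over the 6 libraries, which share depth and composition, and are given as a description. For vim they were THNSL2 (r = 0.998), IQCD (0.994) and SOWAHC (0.993), which are all low, at 0.832 to 3.56 CPM. For fn1a they were PTX3 (r = 0.998), the secreted pattern recognition protein pentraxin 3, with myo10l3 (0.991) and zgc:113314 (0.989). PTX3 was at 27.3, 45.8 and 17.1 CPM after UPHD25 and at 25.6, 37.3 and 35.4 CPM after DMSO. For snai1a they were SAP30L (r = 0.984), ARHGEF28 (0.983) and the Wnt receptor gene FZD2 (0.983). For snai1b they were ASPH (r = 0.995), irf3 (0.992), a transcription factor of interferon responses, and si:ch73-367f21.4 (0.990). For twist1a they were the kinase gene PIM3 (r = 0.995), BAMBI (0.991), a pseudoreceptor of TGF-beta family ligands, and PIGC (0.991). BAMBI was at 86.7, 53.3 and 41.3 CPM after UPHD25 and at 68.9, 53.5 and 42.1 CPM after DMSO, with replicate 1 the highest in both groups as for twist1a.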

How the data were processed

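Polyadenylated RNA was sequenced as stranded paired-end libraries. The authors aligned reads to danRer11 with HISAT2 2.1.0, counted them per gene with featureCounts and deposited raw read counts, 1 column per library. The annotation release, the strand option and the handling of shared reads are not given in the sources used here, so near-identical and overlapping genes are uncertain. Gene names came from a zebrafish name table that paired 29201 of 32520 identifiers, and upper-case names are human names it gives. Rows of 1 name were kept apart.

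Counts were tested with edgeR 4.0.16 in R 4.3.3 (TMM, filterByExpr with a minimum count of 10 and a minimum total of 15, glmQLFit and glmQLFTest, group as the only term, all 6 libraries). Two-sided p-values set the difference between groups against the spread between these pools, which without a block includes differences between replicate numbers. They were adjusted (Benjamini-Hochberg) across all 17497 genes that passed the filter, and 0.05 was the threshold. Depth was 10781071 to 30750026 counts per library. Correlations used log2 CPM with a prior count of 2, and count ratios had 0.5 added to each term before the log. The fit was tested on simulated data.

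Same-numbered libraries deviated together across genes (r = 0.49, 0.29 and 0.21 for replicates 1 to 3), so the numbers were taken to pair the libraries. The numbers come from the sample labels, which do not say what same-numbered pools share. Genes named were the 5 genes, their paralogues and partners, in each list the genes past the threshold and the 3 with the smallest p, and the 3 most similar genes for each of the 5. Other genes named with values (vimr1, vimr2, krt8, the second VIM row, tgfb1a, FABP7, GFAP, ptprc, LCP1, the second SOX9 row, the other DES and MMP14 rows, ccn2b, SLC20A1 and pdzk1) were chosen after their values were seen. The members and lists were chosen with earlier results of these data known. Of 203 list names 10 had no row. Alternatives replaced TMM (library totals, upper quartile, size factors of DESeq2), the test (DESeq2 1.42.0, or voom with quality weights in limma 3.58.1) or the filter (none, or 10 counts or more in all libraries), added the replicate number as a block, or left out 1 library. Leaving out replicate 3 of both groups was added after seeing the data. Gene lengths, coordinates and sequences were not used here.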

Additional observations from a re-analysis of the deposited data

How the results depend on the processing

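vim kept its direction in all 15 alternatives, with a log2 fold change of 0.33 to 0.60 and an edgeR, DESeq2 or voom adjusted p of 0.253 to 0.768. With each library left out in turn its range was 0.37 to 0.51. fn1a ranged from -0.57 to 0.21 in the same exercise and was 0.29 without replicate 3 of both groups. snai1a ranged from -0.18 to 0.052, was 0.060 with library totals and 0.027 without replicate 3 of both groups. snai1b ranged from -0.083 to 0.51 and twist1a from -0.40 to 0.77. The log2 ratio differences ranged from -1.06 to -0.18 (fn1a over vim), -0.055 to 0.48 (snai1b over snai1a) and -0.84 to 0.27 (twist1a over vim). Library totals put the median of all genes at 0.15 on the log2 scale, against 0.03 with TMM. The number of genes past the threshold was 0 in 13 of the 15 alternatives, 0 to 1 with each library left out (1 without UPHD25 replicate 2), and 639 with DESeq2's Wald test, of which 518 were higher and 121 lower after UPHD25. The cause of that gap was not tested. With the replicate block 0 genes passed, vim was at 0.45 (edgeR adjusted p = 0.287), and no call changed. None of the 6 pathway lists gained a gene past the threshold in any alternative. With 3 pools per group and no block, the intervals of fn1a and twist1a are too wide to exclude changes of 1.5-fold in either direction, and the block lowered the SE of twist1a to 0.19, against 0.51 without it.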
